A study of Mus musculus with 6 samples.

Results

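The genes described here are the core steroid-making set of the testicular Leydig cell, with Insl3 listed beside them. The set is Lhcgr, Star, Cyp11a1, Fdx1, Fdxr, Hsd3b1, Hsd3b6, Cyp17a1 and Hsd17b3. Insl3 has no step in the route described below. The 10 genes were listed by name, with no threshold on a measured value. Of them, 9 were measured among 25771 genes, and Insl3 was not analysed here. Leydig cells lie between the seminiferous tubules and make testosterone from cholesterol. Luteinizing hormone binds its receptor Lhcgr and raises cAMP, Star moves cholesterol into the mitochondrion, and Cyp11a1 cleaves its side chain with electrons handed on by Fdxr and Fdx1. The pregnenolone formed is converted by Hsd3b enzymes, Cyp17a1 and Hsd17b3 in turn to testosterone.

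The cells came from the testes of adult C57BL6 mice of genotypes named NONO and NONO deltaER, with 3 libraries each, and were digested to a suspension and profiled by droplet sequencing of transcript 3′ ends. NONO is a nuclear RNA-binding protein, and the labels do not say what deltaER alters. The cell table names its groups WT and KI, here read as NONO (libraries TA, TB and TC) and NONO deltaER (TD, TE and TF); were this reading wrong, every direction between genotypes would turn. Whether each library is its own animal is not stated; p-values therefore describe library-to-library spread, possibly technical. The libraries held 6261 to 8909 cells and 81042216 to 110018960 UMI (unique molecular identifiers, 1 per captured transcript). Nono itself was at 4.02 to 5.91 CPM (UMI of a gene per 1000000 UMI) over all cells of a library, and a 3′ count does not check an altered protein. Libraries TA, TB and TF had a higher mitochondrial share, with a mean of 0.462% to 0.507% of UMI per cell, against 0.226% to 0.342% in TC, TD and TE, so values within each of these sets are given below. In all, 1309 cells, 37 of them Leydig cells, shared a barcode with a cell of another library.

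The deposited table placed 844 of 46495 cells (1.82%) in the Leydig class, 1 of 17 fine classes, and these cells held 0.389% of all UMI. NONO libraries contributed 187, 124 and 187 Leydig cells and NONO deltaER libraries 121, 67 and 158. Their median UMI per cell ran from 1416 to 2370. Of 7 Leydig markers outside the members, 6 were measured, and all 6 were detected in the class. Of these, 5 were highest in Leydig cells, the exception being Scarb1. Their summed level in Leydig cells ran from 4856 to 9082 CPM per library, and the highest library of any other class, in the class named Unknown, had 1659 CPM. Aldh1a1, a retinaldehyde dehydrogenase, had 2400 ± 541 CPM in Leydig cells (SD, n = 6), and Fabp3, a fatty acid carrier, 2248 ± 623 CPM. The class named Unknown had Dcn at 6878 ± 2396 CPM (SD, n = 6) and Pdgfra at 1080 ± 486 CPM, both fixed as fibroblast markers. Markers listed for other cells were also counted in the Leydig class. The 5 measured markers of elongating spermatids summed to 3469 to 17744 CPM and 8 macrophage markers to 5.31 to 106 CPM. The 10 Sertoli markers summed to 1177 to 2384 CPM, chiefly Clu, which had 1147 ± 358 CPM in Leydig cells. Whether the Clu count there is RNA of Sertoli cells was not tested.

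In the GENCODE M21 annotation of mm10, the members lie on 7 chromosomes. Hsd3b6 (chr3:98805504-98814443, minus strand) and Hsd3b1 (chr3:98852194-98859794, minus strand) are 37751 bases apart. Fdx1 (chr9:51943306-51963556, minus strand) and Cyp11a1 (chr9:58006411-58027023, plus strand) share chromosome 9 at a distance. Star is at chr8:25806555-25815982 (plus strand), Fdxr at chr11:115268024-115277050, Hsd17b3 at chr13:64058266-64089230, Lhcgr at chr17:88716481-88791990 and Cyp17a1 at chr19:46667165-46673172, the last 4 on the minus strand. The files give a single count per gene, so no exon or UTR can be singled out. Cyp11a1 overlaps the model Gm17322 by 1041 bases, and reads there cannot be assigned from these files.

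To set the promoters of the 2 Leydig Hsd3b genes beside that of a member that germ cells also expressed, the 250 bases before the RefSeq gene start are shown, 5′ to 3′ on the gene's strand, from GRCm38.p6. They are the windows chr3:98814444-98814693 for Hsd3b6, chr3:98859795-98860044 for Hsd3b1 and chr9:51963603-51963852 for Fdx1, all on the minus strand. Capitals mark a GATA motif, AGATAA or TGATAA, on either strand:
Hsd3b6: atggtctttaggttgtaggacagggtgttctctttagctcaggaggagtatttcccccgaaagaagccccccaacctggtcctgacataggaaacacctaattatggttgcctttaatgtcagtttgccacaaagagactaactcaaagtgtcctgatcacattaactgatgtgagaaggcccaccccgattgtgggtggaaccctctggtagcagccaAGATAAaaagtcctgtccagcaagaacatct
Hsd3b1: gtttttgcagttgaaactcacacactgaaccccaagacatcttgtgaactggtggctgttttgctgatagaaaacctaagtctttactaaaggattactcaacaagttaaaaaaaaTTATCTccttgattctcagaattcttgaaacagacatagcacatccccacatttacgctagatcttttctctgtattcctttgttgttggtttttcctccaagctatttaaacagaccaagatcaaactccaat
Fdx1: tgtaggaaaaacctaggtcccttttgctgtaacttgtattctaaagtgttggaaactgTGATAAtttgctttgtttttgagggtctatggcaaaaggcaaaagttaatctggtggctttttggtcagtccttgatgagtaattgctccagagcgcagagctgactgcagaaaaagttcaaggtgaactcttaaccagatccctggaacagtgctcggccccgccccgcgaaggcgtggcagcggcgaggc
AGATAA starts 31 bases before the start of Hsd3b6 and, on the opposite strand, 134 bases before that of Hsd3b1. Of 32851 such windows, 9.99% hold AGATAA on at least 1 strand, 7.94% hold TGATAA and 16.6% hold either. Windows of 8 of the 10 members were in the RefSeq table (9 windows, 2 of them for Cyp11a1), and those of Star and Cyp17a1 were not. A GATA motif was in 4 of the 9: the 3 shown and Fdxr, with TGATAA starting 177 bases before its start. The windows of Insl3, Cyp11a1, Hsd17b3 and Lhcgr had none. AGGTCA, a half-site of nuclear receptors, was in a window of Lhcgr and of Cyp11a1 and in 14.0% of all windows. Neither CAAGGTCA (1.33% of all windows, and itself containing AGGTCA) nor TGACGTCA, the cAMP response element (1.55%), was in these windows of a member. Over all windows the median GC content was 52.4% with 6 CpG. Hsd3b6 had 47.2% and 2 CpG, Hsd3b1 36.4% and 1 CpG, and Fdx1 48.0% and 8 CpG. The 2 Hsd3b windows were 49.3% identical in a global alignment, against 77.4% for their transcripts.

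All 9 measured members had their highest mean level in Leydig cells. For each of the 9, the lowest Leydig library lay above every library of the other 16 classes. The classes were clustered by the authors on these same genes, so this is a description, without a test. A 3′ UMI counts a transcript once whatever its length, so CPM were not divided by length and capture of the 3′ end can still differ between genes. Hsd3b6 had the highest level in Leydig cells and Lhcgr the lowest. Neighbours in this order were Hsd3b6, Cyp17a1, Cyp11a1, Hsd3b1, Star, Hsd17b3, Fdx1, Fdxr and Lhcgr. The order of a neighbouring pair held in all 6 libraries for Cyp17a1 over Cyp11a1, Star over Hsd17b3, Hsd17b3 over Fdx1 and Fdx1 over Fdxr. It held in 5 of 6 libraries for the other 4 pairs, whose ranges over the libraries overlapped. Ranges could also overlap where the order held in all 6 libraries. Cyp17a1 ran from 2479 to 4698 CPM and Cyp11a1 from 1374 to 3239 CPM.

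**Figure D1:**
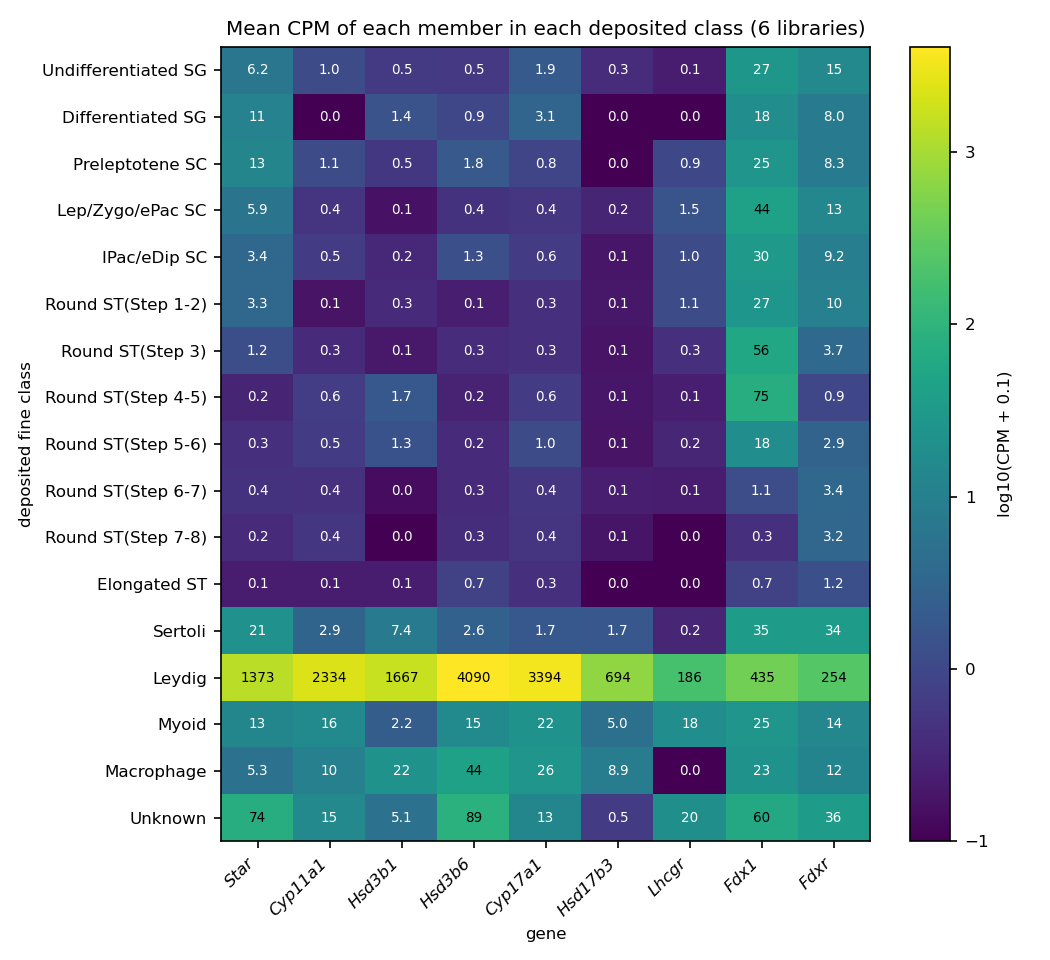
Mean CPM over 6 libraries of the 9 measured members (columns) in the 17 deposited classes (rows); colour is log10(CPM + 0.1) and the printed number is the mean CPM. The Leydig row is the highest in every column, and Fdx1 also has 74.8 CPM in Round ST(Step 4-5).

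Lhcgr, the receptor that starts the cascade, had 143, 274 and 129 CPM in TA, TB and TC (NONO) and 241, 159 and 168 CPM in TD, TE and TF (NONO deltaER). Its mean in Leydig cells was 186 ± 58.1 CPM (SD, n = 6), the lowest of the members, and 235 of 844 Leydig cells (27.8%, Wilson 95% interval 24.9% to 31.0%) had a UMI of it. Intervals here cover counting error only. Star, which delivers cholesterol to the inner mitochondrial membrane, had 755, 1907 and 957 CPM in TA, TB and TC and 2181, 1438 and 1001 CPM in TD, TE and TF. It was the member that varied most, with a coefficient of variation of 41.7% over the 6 libraries against 23.3% to 32.1% for the other 8.

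Cyp11a1, the side-chain cleavage enzyme, had 1374, 3239 and 1792 CPM in TA, TB and TC and 2843, 2516 and 2238 CPM in TD, TE and TF. The NONO libraries thus enclosed the NONO deltaER libraries. Its electron carrier Fdx1 (ferredoxin 1) had 272, 451 and 328 CPM against 595, 563 and 401 CPM, and Fdxr (ferredoxin reductase) had 251, 264 and 134 CPM against 275, 303 and 294 CPM. Fdxr was the member whose genotypes did not overlap, by a margin of TB at 264 against TD at 275 CPM.

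Hsd3b6 and Hsd3b1 encode forms of the 3-beta-hydroxysteroid dehydrogenase. Hsd3b6 had 3475, 4022 and 2909 CPM in TA, TB and TC and 5926, 4857 and 3354 CPM in TD, TE and TF. Hsd3b1 had 1383, 2387 and 1378 CPM against 2304, 1407 and 1141 CPM. Hsd3b6 was above Hsd3b1 in all 6 libraries, with means of 4090 ± 1120 and 1667 ± 535 CPM (SD, n = 6). Of 1614 windows of 50 bases in the Hsd3b1 transcript, 38 occur in that of Hsd3b6, none of them among the 251 windows of its last 300 bases, where a 3′ read falls. Of 1753 windows of Hsd3b6, 237 occur in Hsd3b2 and 220 in Hsd3b3, and of the 251 in its last 300 bases 46 and 44 do. Hsd3b3 had 3 UMI in Leydig cells and Hsd3b2 was not analysed here, so how reads were split between these genes and Hsd3b6 is uncertain.

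Cyp17a1, the 17-alpha-hydroxylase and lyase, had 2479, 4698 and 2687 CPM in TA, TB and TC and 4109, 3355 and 3037 CPM in TD, TE and TF. Hsd17b3, which makes testosterone from androstenedione, had 683, 777 and 445 CPM against 927, 722 and 613 CPM. Libraries TB and TD were the highest 2 for 6 of the 9 members, and Hsd3b6, Fdx1 and Fdxr were the exceptions. These 2 libraries also had the lowest shares of Leydig cells with little member RNA, as described below.

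**Figure D2:**
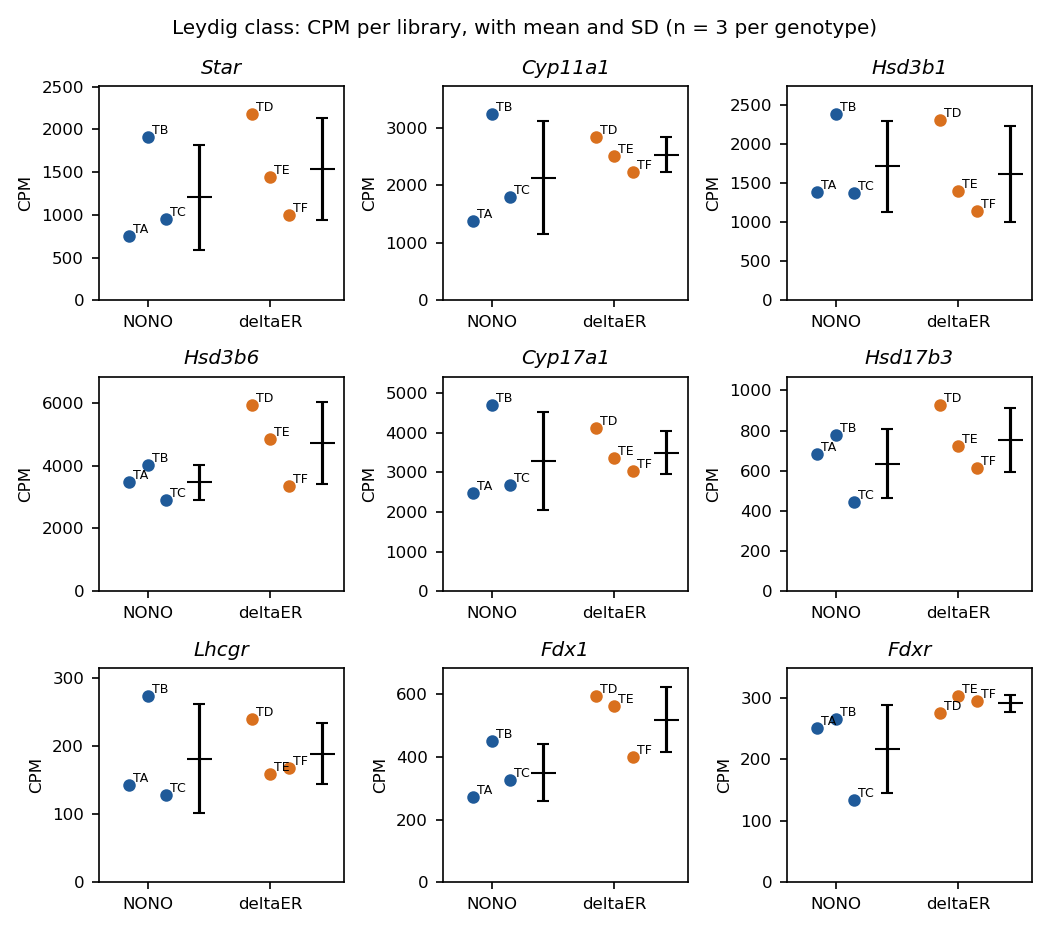
CPM of each member in the Leydig class, 1 point per library labelled by its letters, NONO in blue and NONO deltaER in orange, with the mean and SD of 3 libraries in black. The genotypes overlap for every member but Fdxr, whose NONO deltaER libraries lie at 275 to 303 CPM above TB at 264 CPM.

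Leydig cells held over 50% of the UMI of 7 members. They held 96.4% of Hsd3b6, 95.3% of Hsd17b3, 95.2% of Cyp17a1, 94.4% of Cyp11a1, 89.1% of Hsd3b1, 72.9% of Star and 59.4% of Lhcgr. For Fdx1 the share was 3.83% and for Fdxr 16.1%, and germ cells held 94.9% and 76.5% of their UMI. UMI shares depend on how many cells a class holds: as a share of CPM summed over the 17 classes, in which each class counts alike, Leydig cells had 48.3% of Fdx1, 59.3% of Fdxr and 81.0% of Lhcgr. Germ cells also held 35.5% of Lhcgr and 21.8% of Star. The level in Leydig cells was 146-fold that of the next class for Cyp11a1 and 133-fold for Cyp17a1. It was 5.82-fold for Fdx1, the smallest ratio, where the next class was Round ST(Step 4-5).

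Fdx1 was detected along most of the germ line and was highest in step 4-5 round spermatids. There it had 73.6, 72.0 and 79.1 CPM in TA, TB and TC and 63.9, 80.1 and 80.1 CPM in TD, TE and TF. All 6 libraries lay above every library of step 3 (50.9 to 61.8 CPM). The mean was 27.3 CPM in undifferentiated spermatogonia, 44.0 CPM in the class Lep/Zygo/ePac SC, 26.8 CPM in the class named Round ST(Step 1-2), 18.0 CPM at step 5-6 and 1.12 CPM at step 6-7. Step 4-5 held 9861 Fdx1 UMI, 43.9% of all UMI of the gene. The 2 cells with most held 0.254% of them, so the count was spread over many cells: 4919 of 7396 cells (66.5%) had a UMI at a median depth of 15103 UMI. With each cell thinned to 1000 UMI, which left out no cell of that class and 169 of 844 Leydig cells, the share was 7.65%, against 30.1% in Leydig cells (44.7% unthinned). Elongated spermatids, at a thinned share of 0.156%, give the level at the end of this course (37 of 2599 cells left out).

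Fdxr, the reductase that feeds Fdx1, had another course. Its level was 13.4 CPM in Lep/Zygo/ePac SC, 10.0 CPM in Round ST(Step 1-2) and 3.71 CPM at step 3. At step 4-5, where Fdx1 was highest, it was 0.750, 0.673 and 1.14 CPM in TA, TB and TC and 0.913, 0.429 and 1.34 CPM in TD, TE and TF. These 6 values lay below all 6 values of step 3 (3.04 to 4.67 CPM). At steps 6-7 and 7-8 it was again 3.41 and 3.19 CPM, while Fdx1 was 1.12 and 0.327 CPM. In Sertoli cells the carriers stood at like levels, 34.6 ± 7.12 CPM for Fdx1 and 34.2 ± 2.72 CPM for Fdxr (SD, n = 6).

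**Figure D3:**
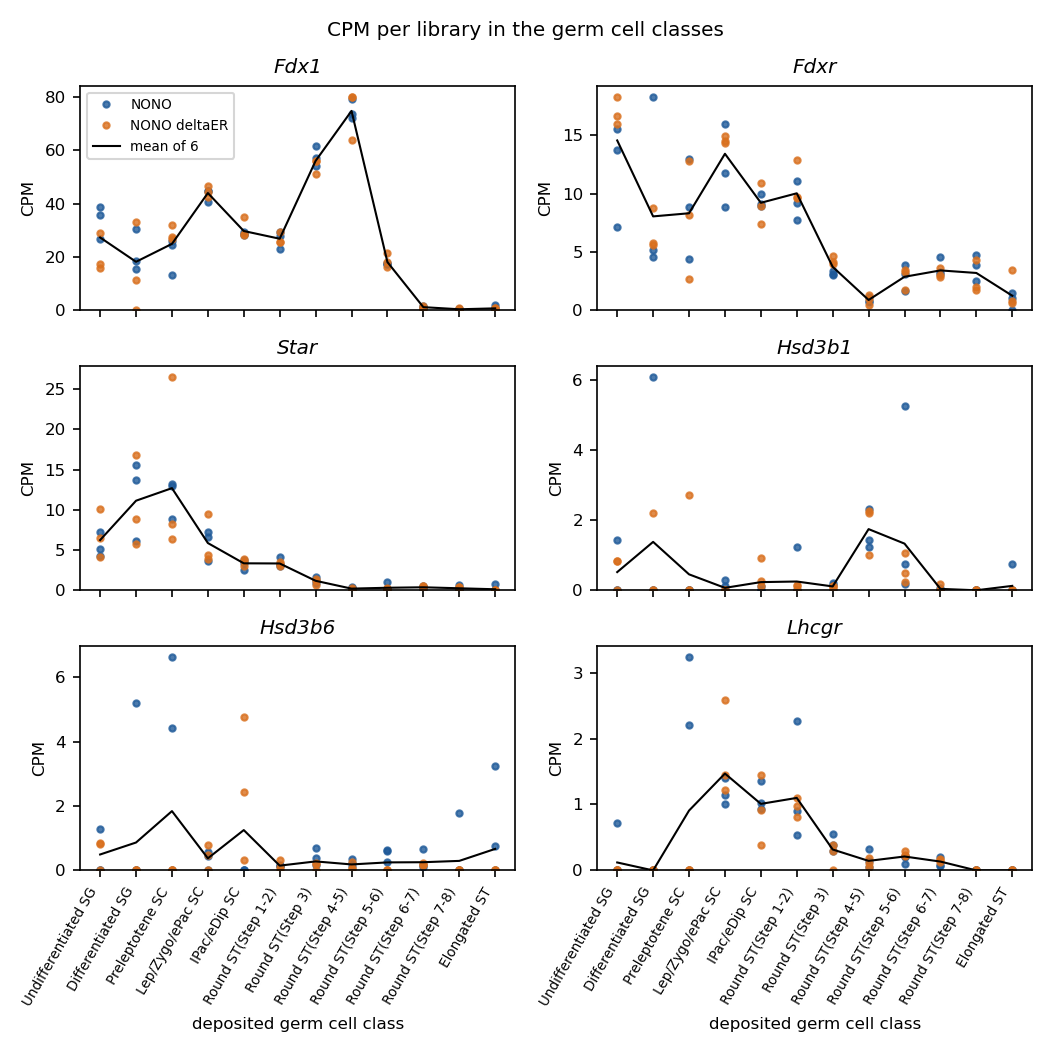
CPM of 6 members in the 12 germ cell classes, in the order of the class names; points are libraries (NONO in blue, NONO deltaER in orange) and the line is the mean of 6. Each panel has its own linear axis. The mean of Fdx1 is highest and that of Fdxr lowest in Round ST(Step 4-5), where Hsd3b1 has 1.75 CPM and Hsd3b6 has 0.186 CPM.

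Star was counted in early germ cells. Its mean was 12.7 ± 7.30 CPM in the class Preleptotene SC (SD, n = 6), 11.1 ± 4.87 CPM in Differentiated SG, 5.87 ± 2.27 CPM in Lep/Zygo/ePac SC and 1.18 ± 0.366 CPM at step 3. In Lep/Zygo/ePac SC, 204 of 2439 cells (8.36%) had a Star UMI, against 12 cells (0.492%) for Hsd3b6, which was the more abundant of the pair in Leydig cells. Thinned to 1000 UMI, the Star share there was 0.656% and the Hsd3b6 share 0%. Over all germ cells there were 112 Star UMI per 100 UMI of Cyp11a1, Hsd3b6 and Cyp17a1 together, against 13.6 in Leydig cells (10.3 to 16.9 per library). The Star gene ends 14 bases from the end of Ash2l on the other strand, and no source used here states whether counting used strand. Ash2l had 279 CPM in Lep/Zygo/ePac SC, 272 CPM at step 3, 179 CPM at step 4-5, where Star was 0.206 CPM, and 135 CPM in Leydig cells. Its part in the Star count was not tested.

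Lhcgr had 1.47 ± 0.573 CPM in Lep/Zygo/ePac SC, 1.01 ± 0.380 CPM in IPac/eDip SC and 1.10 ± 0.605 CPM in Round ST(Step 1-2) (SD, n = 6), from 47 to 55 UMI per class and with a UMI in all 6 libraries. At step 4-5 it was 0.145 CPM. Germ cells held 31.7 Lhcgr UMI per 100 UMI of the same 3 enzymes, against 1.92 in Leydig cells. Its neighbour Gtf2a1l, a germ cell transcription factor on the other strand 1329 bases away, had 320 CPM in Lep/Zygo/ePac SC and 933 CPM at step 4-5. Its part was not tested.

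Hsd3b1 was counted in step 4-5 spermatids, where Hsd3b6 was lower. It had 1.43, 2.32 and 1.23 CPM in TA, TB and TC and 2.22, 1.02 and 2.27 CPM in TD, TE and TF, while step 3 had at most 0.207 CPM in any library. The 231 UMI lay in 199 cells, 171 of which had a single UMI and none more than 3. Hsd3b6 had 27 UMI in the same 7396 cells. Thinned to 1000 UMI, the share of cells with Hsd3b1 was 0.122% (9 cells), against 0.0270% (2 cells) for Hsd3b6. These are too few cells to read a difference from. At step 5-6, 71 of 101 Hsd3b1 UMI came from library TB, and 2 cells held 31.7% of all 101. Cyp11a1 and Cyp17a1 were at 0.589 and 0.573 CPM at step 4-5, with 79 UMI each. Ccdc33, on the other strand 1654 bases from the end of Cyp11a1, had 80.0 CPM at step 4-5 and 28.1 CPM in Leydig cells. The part of Ccdc33 in the Cyp11a1 count was not tested.

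Hsd17b3 and the enzymes Cyp11a1 and Cyp17a1 had few UMI in germ cells. The 12 germ cell classes held 56 of 1520, 231 of 4927 and 302 of 7264 UMI. Pooled over germ cells, Hsd17b3 had 7.78 UMI per 100 UMI of the 3 enzymes, within the 6.02 to 9.32 of the Leydig libraries. By class this ratio varied, from few UMI. It was 18 in Lep/Zygo/ePac SC (9 UMI), 20 in Round ST(Step 1-2) (4 UMI) and 3.96 in IPac/eDip SC (4 UMI). In 3 germ cell classes, Differentiated SG, Preleptotene SC and Elongated ST, no Hsd17b3 UMI was counted, which for Elongated ST (7081985 UMI) allows up to 0.424 CPM at the limit of 3 UMI. A part of the germ cell count sat in few cells. At step 5-6, 7 cells with 10 or more UMI of the 7 members other than Fdx1 and Fdxr held 50% of the 280 such UMI, and in IPac/eDip SC 3 cells held 35.0% of 317. The median total of these cells was 27846 and 53326 UMI, above their class medians of 13819 and 32452. In IPac/eDip SC, 2 cells held 90.6% of the 53 Hsd3b6 UMI.

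Among the other somatic classes, macrophages had all of the 7 members except Lhcgr, at 0.387% to 1.31% of the Leydig level. Hsd3b6 in macrophages was 22.2, 39.4 and 91.5 CPM in TA, TB and TC and 67.9, 26.8 and 16.6 CPM in TD, TE and TF, from 1 to 5 UMI per library. A Hsd3b6 UMI was seen in 16 of 318 macrophages (5.03%, median depth 1032 UMI), against 517 of 844 Leydig cells (61.3%, median depth 1869 UMI). Macrophages had 9.68 Star, 19.4 Hsd3b1 and 6.45 Hsd17b3 UMI per 100 UMI of the 3 enzymes, against 13.6, 17.4 and 7.28 in Leydig cells, each from 6 UMI or fewer. The 3 macrophage values lay in or within 1 UMI of the range of the Leydig libraries. Lhcgr had 0 UMI in 455083 macrophage UMI, which allows up to 6.59 CPM.

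The class named Unknown had Star at 91.7, 58.9 and 43.1 CPM in TA, TB and TC and 151, 39.8 and 57.4 CPM in TD, TE and TF. Its Hsd3b6 was uneven, 63.3, 58.9 and 344 CPM against 16.8, 39.8 and 8.83 CPM, with 2 cells holding 32.0% of the 75 UMI. Star reached 81.5 UMI per 100 UMI of the 3 enzymes there, and Lhcgr, at 19.9 ± 14.0 CPM (SD, n = 6), was 10.7% of its Leydig level. In Sertoli cells Star had 21.3 ± 8.02 CPM, 290 UMI per 100 UMI of the 3 enzymes, and Hsd3b1 7.41 ± 5.46 CPM. Myoid cells had Lhcgr at 17.9 ± 13.6 CPM, from 17 UMI. Of the 144 pairs of a member and a class outside Leydig cells, 35 were above 1% of the Leydig level, and Fdx1 and Fdxr made up most of them.

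**Figure D4:**
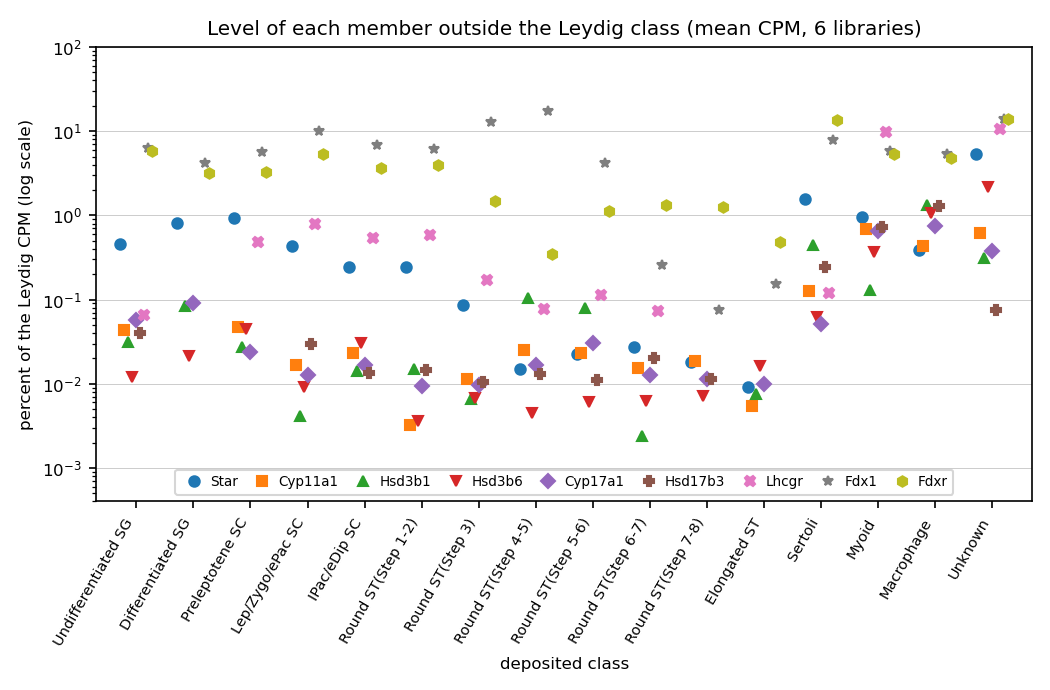
Level of each member in the 16 other classes as a percent of its Leydig level (log scale, means of 6 libraries; pairs with no UMI are not drawn). Fdx1 reaches 17.2% in Round ST(Step 4-5), while Cyp11a1, Cyp17a1 and Hsd3b6 stay under 0.1% in every germ cell class.

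Within the Leydig class the members were unevenly spread over cells. Their UMI made up a median of 0.795% of a Leydig cell's UMI, and 0% of a cell's outside the class. Of the 844 cells, 365 (43.2%) had under 0.5%, a split set after the values were seen, with 172 cells between 0.25% and 1%. There were 57 cells with UMI of all 9 members and 52 cells with none. The cells under the split had a median of 1332 UMI against 2499 for the other 479. Pooled over cells, Cyp11a1 had 227 CPM under the split against 3156 CPM, and other genes, named after their values were seen, also differed, with Fabp3 at 325 against 3068 CPM, Prlr (prolactin receptor) at 241 against 1728 CPM and Gata4 at 11.3 against 112 CPM. RNA of spermatids went the other way, with the protamine Prm2 at 12331 against 3452 CPM and Odf1 at 1207 against 141 CPM. Sertoli markers went both ways, with Clu at 233 CPM under the split against 1534 CPM and Trf at 55.3 against 27.4 CPM. These are cells of the same 6 libraries, so no test was made.

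The share of cells under the split was 44.9%, 21.8% and 66.8% in TA, TB and TC and 30.6%, 34.3% and 43.7% in TD, TE and TF. TB and TD, the libraries with the lowest shares of such cells, were also those with the highest Star, Cyp11a1, Hsd3b1 and Cyp17a1. TC, with the highest share, had the lowest Hsd3b6, Hsd17b3, Lhcgr and Fdxr. The split and the CPM share the same UMI, so this is 1 pattern seen from both sides.

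**Figure D5:**
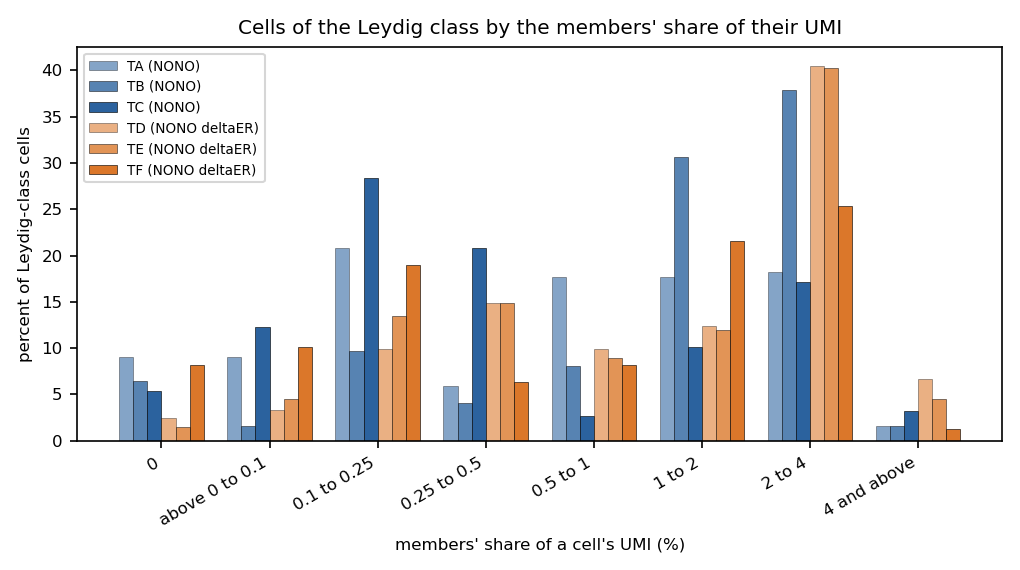
Share of the cells of the Leydig class (percent, per library) by the members' share of a cell's UMI; NONO libraries are blue and NONO deltaER libraries orange. In TC 66.8% of cells lie under 0.5%, in TB 21.8%.

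Between the genotypes, none of the 9 members in Leydig cells passed the test. Of 6087 genes tested with edgeR's quasi-likelihood test, 0 (0%) passed an adjusted p of 0.05, the lowest adjusted p was 0.244, and 202 genes (3.32%) but none of the members had an unadjusted p under 0.05. DESeq2 called 1 gene, Prm2, which is no member. The log2 fold change (NONO deltaER over NONO, ± SE) was largest for Fdx1, at 0.57 ± 0.37 (95% interval -0.22 to 1.35), and was 0.45 ± 0.42 for Hsd3b6 (-0.44 to 1.34) and 0.41 ± 0.36 for Fdxr (-0.34 to 1.17). It was 0.36 ± 0.46 for Star (-0.61 to 1.33), 0.25 ± 0.38 for Hsd17b3 (-0.55 to 1.06) and 0.23 ± 0.43 for Cyp11a1 (-0.68 to 1.14). Values nearest 0 were those of Cyp17a1, 0.08 ± 0.43 (-0.82 to 0.98), Lhcgr, 0.07 ± 0.39 (-0.76 to 0.90), and Hsd3b1, -0.07 ± 0.43 (-0.99 to 0.84). The adjusted p of edgeR was 1.00 for each of the 9.

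Of the 9 log2 fold changes 8 were above 0, where 51.7% of all genes tested were, and their median was 0.25 against 0.02 for all genes. This depended on single libraries: the members' median was -0.02 without TD, 0.07 without TA and 0.11 without TC. It was 0.31 without TE, 0.40 without TF and 0.58 without TB. The genotypes did not overlap for 1 of 9 members, Fdxr, as for 7.47% of all genes. The sets of like mitochondrial share each leave 1 genotype with a single library (TC for NONO, TF for NONO deltaER), so their values carry no replicate check. Within TC, TD and TE, the log2 ratio of NONO deltaER to NONO was 0.92 for Star, 0.89 for Hsd3b6 and 1.10 for Fdxr. Within TA, TB and TF it was -0.41, -0.16 and 0.19, with opposite signs in the sets for Star and Hsd3b6. Signs were also opposite for Cyp11a1 (0.58 and -0.04), Hsd3b1 (0.43 and -0.72), Cyp17a1 (0.47 and -0.24), Hsd17b3 (0.89 and -0.25) and Lhcgr (0.62 and -0.31), but not for Fdx1 (0.82 and 0.15).

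Spermatid RNA in the Leydig class, summed over round and elongating spermatid markers, was at levels that did not overlap between the genotypes. By list, the elongating spermatid markers were apart, at 10036 to 17744 CPM in NONO and 3469 to 4915 CPM in NONO deltaER. The round spermatid markers overlapped, at 258 to 835 CPM in NONO and 266 to 802 CPM in NONO deltaER. Both lists together made up 1.07%, 1.03% and 1.86% of Leydig UMI in TA, TB and TC and 0.374%, 0.572% and 0.452% in TD, TE and TF. The means were 1.32% ± 0.466 and 0.466% ± 0.0998 (SD, n = 3 each; two-sided exact permutation p = 0.1, and 3 libraries against 3 cannot give less). Its part in the members' values was not tested. As a share of all member UMI, Hsd3b1 was 12.8%, 13.2% and 12.8% in TA, TB and TC against 11.9%, 9.18% and 9.32% in TD, TE and TF. Fdx1 was 2.51%, 2.50% and 3.05% against 3.07%, 3.67% and 3.28%. These 2 of the 9 did not overlap between genotypes. Of all genes set over the same total, 5.95% did not overlap. Only the members are parts of that total, so their shares depend on each other and the 5.95% is not a like background. The nearest libraries, TC and TD, had nearly the same Fdx1 share. The other 7 overlapped.

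The share of cells in the Leydig class averaged 2.01% ± 0.512 for NONO libraries and 1.57% ± 0.444 for NONO deltaER (SD, 3 libraries each; two-sided exact permutation p = 0.4). Of somatic cells it was 24.2% ± 5.38 against 18.4% ± 3.34 (exact permutation p = 0.2). In sums over all cells of a library, where fewer Leydig cells and less RNA per cell cannot be told apart, none of 20958 genes (0%) passed edgeR's test, with 1257 at an unadjusted p under 0.05; DESeq2 called 12, none of them a member. The log2 fold changes of the members there ran from -0.44 ± 0.27 for Hsd3b1 to 0.16 for Fdxr, with Fdx1 at -0.10 ± 0.09. Hsd3b1 over all cells was 7.74, 9.54 and 6.75 CPM in TA, TB and TC and 8.72, 3.70 and 5.49 CPM in TD, TE and TF, so the genotypes overlapped.

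In the 16 other classes, between 0 and 5 members passed the filter on low counts, chiefly Fdx1 and Fdxr, and none passed the test. Among all genes, 0.0271% passed in undifferentiated spermatogonia and 0.327% in Preleptotene SC, and 0% in the other 14. The first 2 counts changed when a single library was left out. In undifferentiated spermatogonia the 3 genes called became 594 without TA, 634 without TF and 0 without TB, TC, TD or TE, and DESeq2 called 228. In Preleptotene SC the 19 became 108 without TA, 14 without TB, 5 without TC and 9 without TD. The count there was 12 without TF and 0 without TE, and DESeq2 called 0. No member was called in any of these fits, and in Preleptotene SC edgeR tested 0 members with all libraries. Fdx1 in undifferentiated spermatogonia had 26.8, 38.9 and 35.6 CPM in TA, TB and TC and 17.4 CPM in TD and 29.0 CPM in TF, with TE the lowest, a log2 fold change of -0.73 ± 0.29 (edgeR adjusted p = 0.229). TF lay within the range of NONO. Fdxr at step 3 had 3.37, 3.04 and 3.10 CPM against 4.67, 3.94 and 4.14 CPM, a log2 fold change of 0.42 ± 0.15 (edgeR adjusted p = 1.00). It was 1 of 3 members tested there whose genotypes did not overlap, as for 7.68% of all genes. Fdx1 at step 4-5, the member with the most UMI in any class, had a log2 fold change of -0.0078 ± 0.10, with an adjusted p of 1.00 by edgeR.

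Of 45 further genes around this pathway, in 4 lists, 41 were measured, and none of those that passed the filter in Leydig cells passed the test between genotypes. Of the list for cholesterol supply, 8 of 9 were measured, 5 were tested, 0 passed, and 3 were above 0. The most abundant were Soat1, which esterifies cholesterol, at 425 ± 83.2 CPM in Leydig cells (SD, n = 6), the lipoprotein receptor Scarb1 at 186 ± 49.5 CPM and the lysosomal carrier Npc2 at 122 ± 30.7 CPM. Soat1 was highest in Leydig cells of all classes, while Scarb1 was highest at step 5-6 (198 CPM) and Npc2 in macrophages (280 CPM).

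Of electron and cofactor partners, all 5 were measured and tested and 4 were above 0, with a median log2 fold change of 0.25. Cyb5b, a mitochondrial cytochrome b5, had 290 ± 83.0 CPM (SD, n = 6), its reductase Cyb5r3 228 ± 52.2 CPM and H6pd, which supplies NADPH in the endoplasmic reticulum, 120 ± 44.5 CPM. Cyb5b and Cyb5r3 were highest in Leydig cells.

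Of other steroid enzymes, 10 of 13 were measured but only 2 passed the filter in Leydig cells. Sult1e1, the estrogen sulfotransferase, had 615 ± 203 CPM (SD, n = 6) and a log2 fold change of -0.32 ± 0.42, and Hsd17b7 had 43.3 ± 11.0 CPM and 0.24 ± 0.43. Cyp19a1, the aromatase, had 24.2 ± 19.7 CPM in Leydig cells and 884 CPM in Lep/Zygo/ePac SC, its highest class. In Leydig cells under the 0.5% split Cyp19a1 was 56.7 CPM, against 13.4 CPM in the rest.

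Of the list for hormone signalling and regulators, all 18 were measured and 14 were tested, of which 11 were above 0 and 0 passed. Prlr had 1278 ± 351 CPM in Leydig cells (SD, n = 6), Prkar1a, a regulatory subunit of protein kinase A, 282 ± 17.6 CPM, and Crem, a cAMP-responsive regulator of spermatids, 243 ± 81.9 CPM. Crem was highest at step 4-5 (926 CPM) and, within the Leydig class, was 486 CPM under the split against 128 CPM. Creb1, chosen for naming after its values were seen, was the gene of the 4 lists with the lowest unadjusted p (0.0484, adjusted p = 1.00 by edgeR). It had 40.6, 32.6 and 20.7 CPM in TA, TB and TC and 50.6, 69.0 and 57.7 CPM in TD, TE and TF.

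The genes most like the members in pattern were found from the correlation of log2(CPM + 1) over the 17 classes with the members' mean, among 9806 genes with at least 10 CPM in Leydig cells, as a description without a test. Sult1e1 came first (Pearson r = 0.979), followed by Serpina3g (0.968), Sardh (0.967), C1rl (0.966), Klk1b21 (0.963), Cyp4f15 (0.962), Cdhr5 (0.957), Scd1 (0.953), Gsta3 (0.951) and Serpina3f (0.949). Sult1e1 had 615 CPM in Leydig cells and 15.4 CPM in the next class, and Serpina3g 430 and 20.8 CPM. Of the members themselves Cyp11a1 had the highest r (0.980) and Fdx1 the lowest (0.689). The points are classes of the same 6 libraries and differ in depth.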

How the data were processed

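The deposited matrix holds raw UMI counts of 25771 genes in 46495 cells, made by the authors with Cell Ranger 2.1.1 on mm10 per the submitters' processing notes; no source used here names the annotation. Classes, groups and the mitochondrial percent of each cell are those of the cell table the authors deposited. The gene lists and members were chosen with earlier results of these data known. The libraries are not tied to numbered samples, so genotype is read from the cell table's group column. Counts were summed per library and class (at least 20 cells) and tested with edgeR 4.0.16 (R 4.3.3; TMM, filterByExpr, robust quasi-likelihood, Benjamini-Hochberg over all genes); DESeq2 1.42.0, other scalings, filters, the mitochondrial sets as covariate, cell subsets and each library left out were alternatives. No doublet caller was run, and leaving out the 5% of cells with the most UMI of each class and library stood in for it. The script was tested on counts simulated from the real means and library sizes, with known changes. In the Leydig class it recovered 1 of 67 genes changed 1.5-fold, 3 of 67 changed 2-fold and 48 of 66 changed 4-fold, with 2 false calls. Most changes of 2-fold or less would thus be missed in that class. Over all cells it recovered 21 of 67, 53 of 67 and 63 of 66, with 13 false calls. Named were all members, the 3 most abundant genes of each pathway list, any gene that passed edgeR's test in Leydig cells (0), and 10 genes of like pattern. Promoters and positions come from RefSeq (GRCm38.p6) and GENCODE M21.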

Additional observations from a re-analysis of the deposited data

How the results depend on the processing

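No member passed an adjusted p of 0.05 in Leydig cells under any of the 13 alternatives, or over all cells under any of 12. In Leydig cells the number of genes called, 0 in edgeR's main test, was 1 with DESeq2 (Prm2), 9 without a filter, 4 in cells with at least 2 UMI of Leydig markers (Spata18, 1700016H13Rik, Ubqlnl and Gm614; an alternative chosen after seeing the data) and 0 to 2 when a library was left out (1700001O22Rik and Gm614 without TB). All of these were lower in NONO deltaER, and the genes of these short lists are named after their values were seen. Over all cells it was 12 with DESeq2 and 0 to 4 when a library was left out (Auts2, Sdk1, Stra8 and Gm4969, higher without TF). In the 14 other classes with 0 genes called, leaving out a library gave at most 24 (Differentiated SG without TC). In the other classes the count of members called went from 0 to 1 without a filter, which was Hsd3b6 in IPac/eDip SC, where 2 cells held most of its UMI. The cause was not tested. Of 117 log2 fold changes of members in Leydig cells under the alternatives, 14 had the opposite sign, and of 108 over all cells 13. With the cells of most UMI left out, Hsd3b1 in Leydig cells was 0.048 and Cyp11a1 over all cells 0.013; without a filter Lhcgr in Leydig cells was -0.0028; in cells with at least 1000 UMI Star over all cells was -0.0085. Leaving out each library gave, in Leydig cells, -0.083 to 0.87 for Star, -0.045 to 0.68 for Cyp11a1, -0.52 to 0.25 for Hsd3b1, -0.14 to 0.45 for Cyp17a1, -0.016 to 0.43 for Hsd17b3 and -0.24 to 0.49 for Lhcgr. Over all cells it gave -0.31 to 0.20 for Star, -0.21 to 0.12 for Cyp11a1, -0.26 to 0.19 for Hsd3b6, -0.41 to 0.075 for Hsd17b3 and -0.32 to 0.034 for Lhcgr. The share of cells in the Leydig class stayed lower in NONO deltaER in all 9 alternatives. Between 7 and 8 members had over 50% of their signal in Leydig cells, 8, with Fdxr, when class CPM were summed in place of UMI, and 31 to 37 pairs were above 1% of the Leydig level. No paired analysis was possible because the libraries carry letters that the cell table does not tie to numbered samples. The 844 Leydig cells and 3 libraries per genotype limit the precision of every comparison within that class.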
